A study of Mus musculus with 10 samples.

Results

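A set of 10 genes for chaperones and proteases of mitochondria were followed in αTC1 cells, a mouse line of glucagon-secreting pancreatic tumour cells, after exposure to the antiandrogen enzalutamide. They were picked by symbol from the 33212 genes of the count table, and all 10 were among the 14156 genes with enough counts to test. The 4 chaperone genes were Hspa9, Hspd1, Hspe1 and Trap1, and the 6 genes of proteolytic complexes were Lonp1, Clpp, Clpx, Yme1l1, Afg3l2 and Spg7. Polyadenylated RNA came from cells kept for 48 h in 10 μM enzalutamide (5 libraries) or in the solvent DMSO for 48 h (5 libraries). All cells belonged to the same line and were grown in low-glucose medium with serum. The labels call the libraries biological replicates without saying whether they were separate cultures, so every p-value below rests on the spread among these libraries, which may be technical.

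Most mitochondrial proteins are made in the cytosol and imported unfolded, and the matrix holds its own machinery to pull them in, fold them and destroy those that fail. The mitochondrial Hsp70, encoded by Hspa9, drives import and early folding, and the Hsp60 and Hsp10 rings, encoded by Hspd1 and Hspe1, enclose proteins while they fold. Lon and ClpXP degrade proteins in the matrix, while the AAA proteases of the inner membrane work on either side of it. When proteins misfold in mitochondria, mammalian cells can raise these genes through a stress response in which ATF4, ATF5 and CHOP take part. In endocrine cells of the islet, mitochondrial metabolism couples nutrients to hormone secretion.

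Lonp1, the gene of the Lon protease, was 1.96-fold higher in enzalutamide, and Hspa9 was 1.30-fold higher. Trap1 rose by a small margin, whereas Hspd1 fell by 8.18%, Hspe1 fell by 8.90%, Afg3l2 fell by 10.8% and Yme1l1 fell by 13.7%. Clpp, Clpx and Spg7 did not pass the test. Thus 3 of the 10 genes were higher and 4 lower, while 37.8% of all tested genes passed in either direction, 19% higher and 18.8% lower. Of these calls 50.3% were higher, and 60.7% with libraries scaled by total counts alone. A gene was called at an adjusted p under 0.05 (edgeR's quasi-likelihood test, adjusted by Benjamini-Hochberg over all tested genes). The median log2 fold change (enzalutamide against DMSO) was 0.01 over the 10 genes and 0.01 over all tested genes. Among the chaperone genes 2 rose and 2 fell, and among the protease genes 1 rose and 2 fell.

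**Figure D1:**
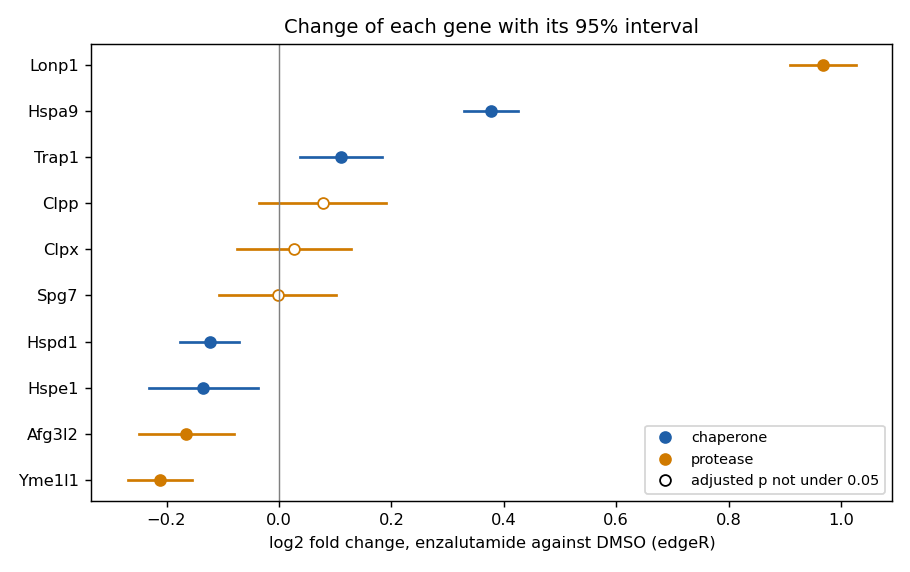
The log2 fold change of each gene between enzalutamide and DMSO is plotted with its 95% interval, chaperones in blue and proteases in orange, with open symbols where the adjusted p was not under 0.05. Lonp1 at 0.97 and Hspa9 at 0.38 stand to the right, and Yme1l1 at -0.21 is the lowest.

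Libraries held between 59557697 and 68603842 counts. The α cell markers Gcg, Irx1, Irx2, Pou3f4, Ttr, Slc38a5 and Pcsk2 were all detected. Gcg, the glucagon gene, had a mean of 15269 CPM (counts per 1000000 counts of the TMM-scaled library) in DMSO and 8466 CPM with enzalutamide. The β cell markers Ins1, Pdx1 and Ucn3, the δ and PP cell hormones Sst and Ppy, the acinar and duct markers Prss2, Ptf1a and Krt19 and the leukocyte gene Ptprc had 0 counts in every library. With their remaining members the β cell markers summed to 1.11 to 2.84 CPM in DMSO and 1.01 to 2.19 CPM in enzalutamide, mostly from Ins2 and Mafa, and the δ and PP cell markers to at most 0.119 CPM. The acinar and duct markers summed to 11.2 to 11.9 CPM in DMSO and 8.49 to 11.04 CPM in enzalutamide, nearly all from Sox9. Markers of stromal and immune cells summed to at most 1.64 CPM in DMSO and 2.32 CPM in enzalutamide. The 13 mRNAs of mitochondrial DNA took 6.05% to 6.47% of counts in DMSO and 7.09% to 7.74% in enzalutamide. With these mRNAs and Gcg left out of the scaling, 3 of the 10 genes were again higher and 4 lower. Enzalutamide libraries 2 and 5 stood apart: pairs with either had a chi-square over its degrees of freedom of 15.89 to 38, against 9.24 to 10.49 in the other enzalutamide pairs and 9.562 to 14.01 in DMSO. Without library 2 there were 3 higher and 4 lower, and without library 5 there were 3 and 3, Hspe1 no longer passing. In a culture, a change in RNA per cell and a change in the share of cells that express a gene cannot be told apart.

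Sequence around the start sites is shown for Lonp1, the gene that moved most, for Trap1, a small riser, and for the Hspd1 and Hspe1 pair, whose genes lie head to head and fell together. RefSeq windows of 300 bases (250 before the start and 50 from it on, GRCm38.p6) were at hand for 8 of the 10 genes, in 9 windows. Both strands were searched for 8 motifs chosen with these sequences and results in view, and capitals mark every match. The Lonp1 stretch is chr17:56626888-56627153 on the minus strand, the Trap1 stretch chr16:4077828-4078060 on the minus strand and the Hspe1 stretch chr1:55088056-55088085 on the plus strand.
Lonp1: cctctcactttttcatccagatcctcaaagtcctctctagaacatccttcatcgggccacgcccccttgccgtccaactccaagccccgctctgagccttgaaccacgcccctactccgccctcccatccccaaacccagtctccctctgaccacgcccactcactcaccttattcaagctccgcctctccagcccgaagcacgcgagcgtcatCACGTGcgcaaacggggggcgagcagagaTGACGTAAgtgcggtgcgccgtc
Trap1: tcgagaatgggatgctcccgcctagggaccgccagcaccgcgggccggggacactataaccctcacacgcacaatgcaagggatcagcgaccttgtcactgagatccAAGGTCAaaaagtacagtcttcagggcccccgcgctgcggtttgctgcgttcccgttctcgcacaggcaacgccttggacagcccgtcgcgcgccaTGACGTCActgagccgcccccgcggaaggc
Hspe1: ccgttctaGAACCTTCCGGAAGgccccgcg

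In the Lonp1 window the letters TGACGTAA, a variant of the cAMP response element that CREB and ATF family factors bind, ran from position -7 to position 1, the RefSeq start. These letters were in 0.499% of the 32851 windows searched. An E-box, CACGTG, lay at -36 to -31, a motif held by 7.15% of windows and also by an Hspd1 window (-80 to -75). The Trap1 window held the full cAMP response element TGACGTCA at -47 to -40 (1.79% of windows). It also held the nuclear receptor motif AAGGTCA at -143 to -137 (4.72%). AAGGTCA, on either strand, was in windows of Hspd1 (-174 to -168) and Hspe1 (-48 to -42) as well. These windows overlap, and both matches are the same bases of the genome. In the 30 bases of Hspe1 the heat shock element unit GAANNTTC (7.86% of windows) overlapped the ETS motif CCGGAAG on both strands (8.86%), and the same bases lay in a window of Hspd1. TGATGNAA, the composite element that ATF4 and CHOP bind with C/EBP factors, was in 0 of the 9 windows and in 3.97% of all windows. With a share this low, absence from 9 windows is not a result about these genes. No window was at hand for Hspa9 and Afg3l2. A match describes the letters and does not show binding.

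Lonp1 encodes Lon, the AAA+ protease that clears misfolded and oxidized proteins from the matrix and controls the level of the mtDNA packaging factor TFAM. The gene is on chromosome 17, 56614297 to 56626887 of GRCm38/mm10 (ENSMUSG00000041168). Its level was 340.4, 342.6, 350.1, 355.6 and 331.7 CPM in the 5 DMSO libraries and 674.8, 707.9, 648.0, 664.1 and 670.9 CPM in the 5 enzalutamide libraries. All enzalutamide libraries were high and no value came near the DMSO range. The group means were 344 ± 9.16 and 673 ± 22 CPM (SD, n = 5 each), which is 0.97 on the log2 scale (SE 0.0299, adjusted p = 1.52e-13 in edgeR). Of all tested genes 97.0% had a smaller absolute log2 fold change than Lonp1. Groups without overlap, as for Lonp1, were found in 26.8% of all tested genes, with enzalutamide higher in 13.1%.

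The protease total was higher in enzalutamide with Lonp1 included and lower without it. The summed level of the 6 protease genes was 949 ± 20 CPM in DMSO and 1230 ± 34.3 CPM with enzalutamide, a ratio of 1.30, and Lonp1 provided 36.2 ± 0.599% of it in DMSO and 54.7 ± 1.02% in enzalutamide (SD, n = 5 each). Without Lonp1, a split made after its values were seen, the other 5 protease genes summed to 605 ± 14 and 557 ± 20.4 CPM. Every enzalutamide library was below every DMSO library in this sum. Of these 5 genes Yme1l1 and Afg3l2 were called lower, while Clpp, Clpx and Spg7 did not pass the test. The 4 chaperone genes summed to 2650 ± 49.8 and 2749 ± 73.5 CPM, and their groups overlapped. For every 100 chaperone counts there were 35.1 to 36.7 protease counts in the DMSO libraries and 43.2 to 45.9 in the enzalutamide libraries. Leaving out Lonp1 turned this to 22.3 to 23.5 in DMSO and 19.5 to 20.8 in enzalutamide. These sums are given as a description, without a test.

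**Figure D2:**
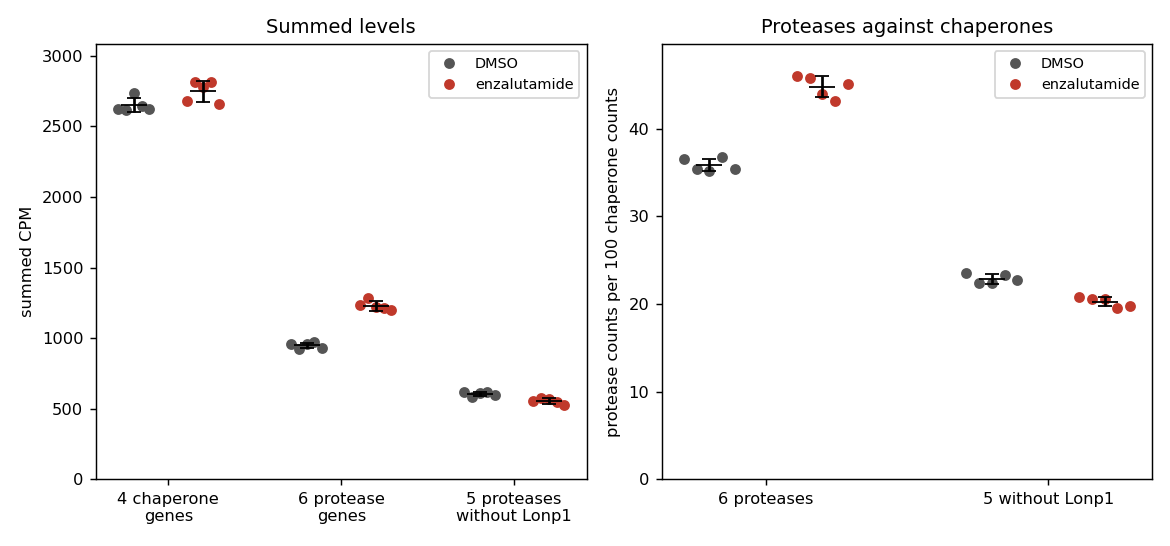
Summed CPM of the chaperone and protease genes (left) and protease counts per 100 chaperone counts (right) are plotted for each library, with mean and SD of 5 libraries as bars. The 6 proteases have means of 949 CPM in DMSO and 1230 CPM in enzalutamide. The sums of the 5 without Lonp1 lie lower in enzalutamide than in DMSO.

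On the same chromosome lies Clpp (56990305 to 56996188), while Clpx is on chromosome 9 (65294260 to 65330658). ClpXP is a matrix protease made of a peptidase barrel, encoded by Clpp, and an unfoldase ring that feeds it, encoded by Clpx. Clpp was at 48.4, 54.2, 50.0, 48.5 and 50.6 CPM in DMSO and at 56.9, 59.9, 47.8, 51.1 and 50.0 CPM in enzalutamide. Its groups overlapped, with 2 enzalutamide libraries above and 1 below the DMSO range (log2 fold change 0.08, 95% interval -0.04 to 0.19, adjusted p = 0.326 in edgeR). Clpx had the lowest level of the 10 genes, from 29.95 to 34.3 CPM in DMSO and from 31.4 to 35.1 CPM in enzalutamide (log2 fold change 0.03, 95% interval -0.07 to 0.13, adjusted p = 0.733). These intervals leave room for changes of either gene of the size seen for Trap1, but not of the size seen for Lonp1. The ratio of Clpx to Clpp counts was 0.644 ± 0.0437 in DMSO and 0.626 ± 0.0861 in enzalutamide (SD, n = 5 each). By an exact permutation test, two-sided, p was 0.651, and 0.81 after adjustment over the 4 partner ratios.

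Of the 3 genes for AAA proteases of the inner membrane, Yme1l1 and Afg3l2 fell and Spg7 did not pass the test. Yme1l1 encodes the i-AAA protease, which faces the intermembrane space and processes OPA1 and lipid transfer proteins. The gene is on chromosome 2, 23156369 to 23199260. Its level was 177.1, 179.1, 175.9, 173.9 and 183.7 CPM in DMSO and 148.5, 153.1, 154.7, 156.6 and 155.1 CPM in enzalutamide. No enzalutamide library reached the lowest DMSO value, and the spread within each group was small. The change was -0.21 (log2, SE 0.0291, adjusted p = 1.84e-05 in edgeR). Groups apart in this way, with enzalutamide lower, were found in 13.7% of all tested genes.

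Afg3l2 and Spg7 encode the subunits of the m-AAA protease, which faces the matrix, and in human patients mutations of either gene cause ataxia or spastic paraplegia. Afg3l2 is on chromosome 18 (67404764 to 67449172) and Spg7 on chromosome 8 (123062942 to 123097760). Afg3l2 was at 263.8, 232.6, 266.9, 264.9 and 245.9 CPM in DMSO and at 230.3, 237.7, 236.7, 221.9 and 209.9 CPM in enzalutamide. It fell (log2 fold change -0.16, SE 0.0429, adjusted p = 0.00547 in edgeR), although only 3 of 5 enzalutamide values were below the lowest DMSO value. Spg7 ranged from 84.8 to 96.7 CPM in DMSO and from 79.8 to 97.0 CPM in enzalutamide, and the estimated log2 fold change (-0.0019, SE 0.0531, adjusted p = 0.984) turned its sign under 5 alternatives. The ratio of Spg7 to Afg3l2 counts was 0.353 ± 0.0161 in DMSO and 0.394 ± 0.0132 in enzalutamide, without overlap. The ratio thus differed between groups by 0.16 on the log2 scale (SE 0.0371). By exact permutation, two-sided, p was 0.00794, the lowest value possible with 5 libraries a group, and 0.0159 after adjustment over 4 ratios.

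**Figure D3:**
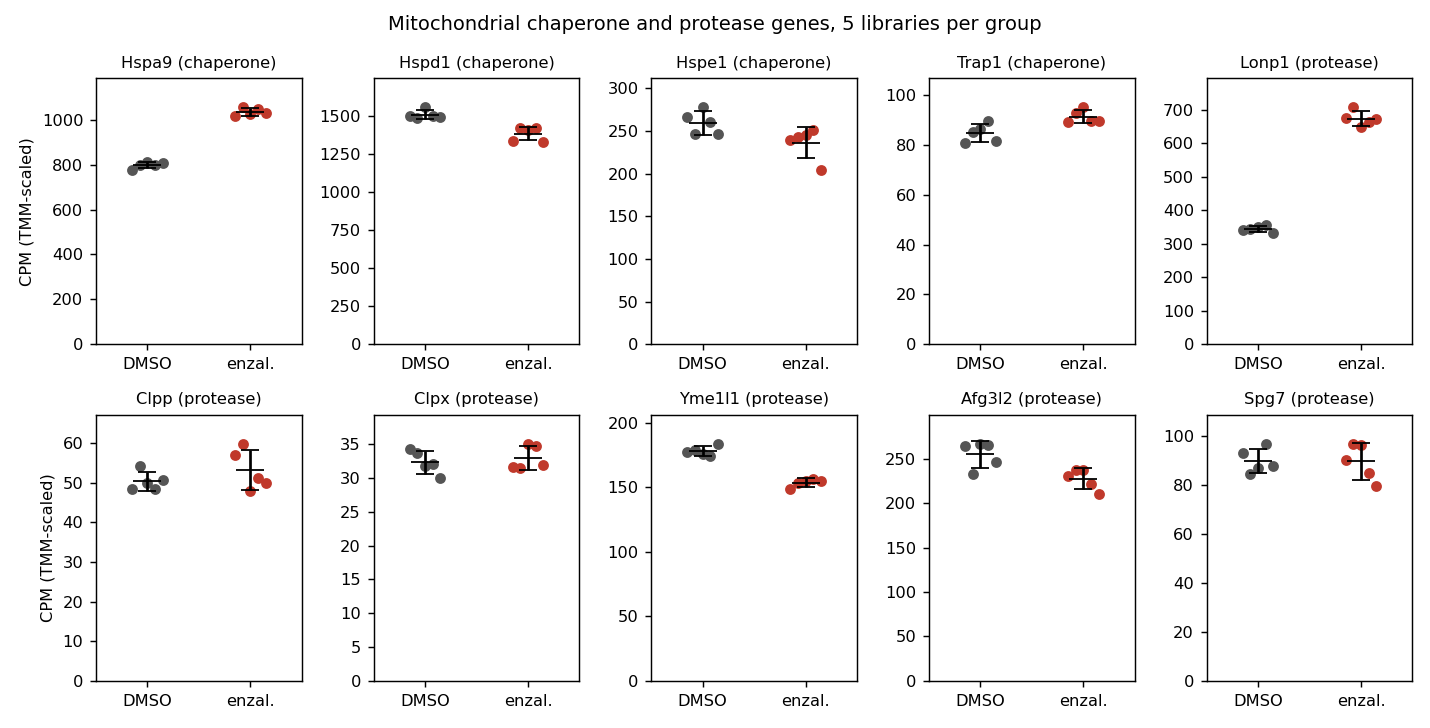
Each panel plots the level of a gene in CPM in the 5 DMSO and 5 enzalutamide libraries, with mean and SD as bars and an axis that starts at 0. The groups do not overlap for Lonp1, Hspa9, Hspd1 and Yme1l1.

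Of the chaperones, Hspa9 moved most. It encodes mortalin, the Hsp70 of the matrix, which also serves in the making of iron-sulfur clusters. The gene lies on chromosome 18, 34937414 to 34954357. Hspa9 was at 775.1, 797.1, 811.7, 797.6 and 806.0 CPM in DMSO and at 1016, 1058, 1026, 1049 and 1031 CPM in enzalutamide. Every enzalutamide value was above every DMSO value. The means of 797 ± 13.9 and 1036 ± 17.1 CPM (SD, n = 5 each) differed by 0.38 on the log2 scale (SE 0.0242, adjusted p = 2.34e-09 in edgeR). Its share of the 4 chaperone genes' counts was 30.1 ± 0.499% in DMSO and 37.7 ± 0.701% in enzalutamide.

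Lonp1 and Hspa9, which rose most among the proteases and among the chaperones, did not rise to the same extent. The ratio of Lonp1 to Hspa9 counts was 0.432 ± 0.0129 in DMSO and 0.65 ± 0.0174 in enzalutamide, without overlap (SD, n = 5 each). The log2 difference of this ratio was 0.59 (SE 0.026). By exact permutation p was 0.00794, the lowest value possible with 5 libraries a group, and 0.0159 after adjustment over 4 ratios. This outcome could be foreseen from the separate changes of both genes given above, so the p-value adds no further support.

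Hspd1 and Hspe1 encode the Hsp60 barrel and its Hsp10 lid and share the region of their start sites on chromosome 1, where Hspd1 spans 55077835 to 55088243 and Hspe1 55088132 to 55091307. Hspd1 was the most abundant of the 10 transcripts and ranked 28 by CPM among all tested genes in DMSO. Its level was 1501, 1488, 1560, 1498 and 1492 CPM in DMSO and 1339, 1420, 1410, 1421 and 1332 CPM in enzalutamide. The enzalutamide libraries were all below the DMSO libraries, by a small distance. The log2 fold change was -0.12 (SE 0.0266, adjusted p = 0.00134 in edgeR), and its share of chaperone counts was 56.9 ± 0.219% in DMSO and 50.4 ± 0.348% in enzalutamide.

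Hspe1 was at 267.0, 246.0, 278.3, 261.0 and 246.1 CPM in DMSO and at 239.1, 243.0, 245.1, 251.5 and 204.3 CPM in enzalutamide. Of the enzalutamide values 4 of 5 were below the lowest DMSO value, and library 5 was the lowest of all. The log2 fold change of Hspe1 was -0.13 (SE 0.0498, adjusted p = 0.0419 in edgeR). This call was lost under 7 of 21 alternatives, among them total-count scaling (adjusted p = 0.125) and the omission of DMSO library 1, 3 or 4 or enzalutamide library 1 or 5 (adjusted p between 0.0664 and 0.123), where the log2 fold change was between -0.14 and -0.09. Without enzalutamide library 5 it was -0.09 (adjusted p = 0.0758). The ratio of Hspe1 to Hspd1 counts was 0.172 ± 0.00661 in DMSO and 0.171 ± 0.0102 in enzalutamide (SD, n = 5 each), with p = 0.81 by exact permutation before and after adjustment. The log2 difference of that ratio was -0.01 with an SE of 0.0469. Exons of the pair share 112 bases on opposite strands, and since the strand setting of the counting is not given in the sources used here, reads there cannot be assigned with certainty.

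Trap1 encodes the Hsp90 of mitochondria and lies on chromosome 16, 4039971 to 4077827. It was at 80.8, 85.2, 86.4, 89.4 and 81.5 CPM in DMSO and at 89.1, 93.0, 95.3, 89.8 and 89.8 CPM in enzalutamide. Of the enzalutamide values 4 of 5 were above the highest DMSO value, and the log2 fold change of Trap1 was small (0.11, SE 0.0371, adjusted p = 0.0258 in edgeR). Omission of DMSO library 1 or 5 or enzalutamide library 3 ended the call (adjusted p between 0.0694 and 0.0834). Its exons share 54 bases with Dnase1 on the opposite strand, a gene with a mean count of 331.8.

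Levels of different genes were compared per length, as CPM per kb of the principal annotated transcript. In DMSO the order was Hspd1 (622 ± 12.2), Hspe1 (336 ± 18), Hspa9 (262 ± 4.57), Lonp1 (117 ± 3.1), Afg3l2 (82.4 ± 4.85), Clpp (51.2 ± 2.39), Yme1l1 (37.8 ± 0.796), Trap1 (36.5 ± 1.55), Spg7 (31.0 ± 1.72) and Clpx (11.2 ± 0.591 CPM per kb). The ranges over libraries overlapped for the neighbours Yme1l1 and Trap1 and were apart for the other neighbours. In enzalutamide Hspa9 (340 ± 5.61 CPM per kb) was above Hspe1 (306 ± 24), and Trap1 (39.4 ± 1.14) was above Yme1l1 (32.6 ± 0.66). Lonp1 kept its place in the order at 228 ± 7.45 CPM per kb. Per kb of all annotated exons Hspa9 was at 185 ± 3.23 and Hspe1 at 176 ± 9.44 already in DMSO, with ranges that overlapped, and Afg3l2 came after Clpp and Trap1 at 25.8 ± 1.52.

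**Figure D4:**
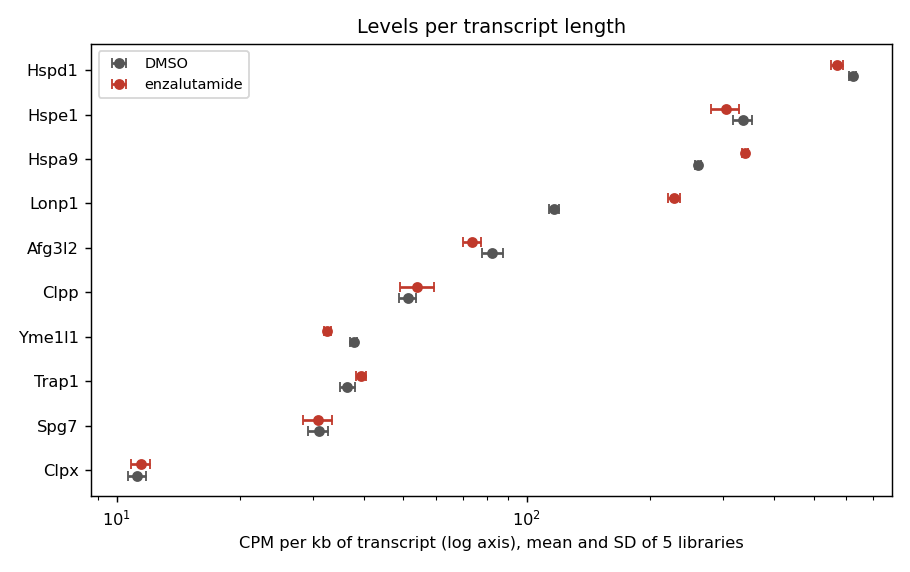
Levels per kb of principal transcript (log axis) are plotted as mean and SD of 5 libraries for DMSO and enzalutamide. Hspd1 is highest at 622 CPM per kb in DMSO, Clpx lowest at 11.2, and Lonp1 moves from 117 to 228.

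Partners, substrates and regulators of the 10 genes, and 13 chaperones of other compartments, were described from 7 lists of 83 genes in all. Of the 83 genes 18 were higher and 33 lower by the same test, or 61.4% called. The chaperones of other compartments, which are not partners, gave 13 of the lower calls. Among all tested genes 37.8% were called, 19% higher and 18.8% lower, and counts in lists of this size are given as a description beside those shares. The first holds the cofactors of mitochondrial Hsp70 and its import motor. Of these 9 genes 3 were higher and 0 lower (33.3% called, near the share of all genes), with a median log2 fold change of 0.01. Hscb, the J protein of iron-sulfur cluster transfer, had 17.6 ± 1.00 CPM in DMSO and rose to 22.2 ± 1.74 (0.34 on the log2 scale, SE 0.0635, adjusted p = 0.0004 in edgeR). Dnaja3, the J protein known as Tid1, rose by 0.22 on the log2 scale (SE 0.0407, adjusted p = 0.000389). A nucleotide exchange factor also rose, and the log2 fold change of Grpel2 was 0.17 (adjusted p = 0.0279, and up to 0.0791 under 7 alternatives, 6 of which each omit 1 library). Its paralog Grpel1, named after its values were seen, had mean levels of 71.7 (DMSO) and 67.7 CPM (adjusted p = 0.22).

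Among 13 other proteases and processing peptidases of mitochondria 5 were lower and 1 higher (46.2% called, median log2 fold change -0.08). The subunits of the peptidase that removes import signals fell together, with log2 fold changes of -0.21 for Pmpca (adjusted p = 3.3e-05) and -0.20 for Pmpcb (adjusted p = 0.000393, both in edgeR). Afg3l1, which in mouse is a further m-AAA subunit, had 107 ± 3.48 CPM in DMSO and fell to 94.6 ± 2.48 (-0.18 on the log2 scale, SE 0.0339, adjusted p = 0.000481). Parl, the rhomboid protease of the inner membrane, was lower by a similar step (-0.23, log2 scale; adjusted p = 0.00427). The member that rose was Immp2l, an inner membrane signal peptidase subunit named after its values were seen, from 3.33 to 4.80 CPM (adjusted p = 0.00965).

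Of 8 genes for scaffolds and other AAA proteins 2 were higher and 2 lower (50.0% called, median 0.04). The prohibitin genes Phb and Phb2, whose products form rings around the m-AAA protease, had log2 fold changes of -0.19 (adjusted p = 0.00103) and -0.13 (adjusted p = 0.00584 in edgeR). Clpb, a disaggregase of the intermembrane space, rose by 0.16 (adjusted p = 0.00442) and Lace1, an AAA protein also called Afg1l, by 0.23 (adjusted p = 0.0054).

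Of 11 genes whose products these proteases are known to cut or degrade 5 were lower and 1 higher (54.5% called, median -0.05). Smdt1, which encodes the EMRE subunit of the calcium uniporter and is a substrate of the m-AAA protease, had 109.6 ± 4.34 CPM in DMSO and fell to 89.8 ± 7.49 (-0.29 on the log2 scale, SE 0.05, adjusted p = 0.000188 in edgeR). Timm17a, an import channel subunit cut by YME1L1, changed by -0.22 on the log2 scale (adjusted p = 0.000574). The gene that rose was Ghitm, an inner membrane protein also called TMBIM5, at 250.4 ± 7.37 CPM in DMSO and 309 ± 12.4 in enzalutamide (0.31 on the log2 scale, SE 0.033, adjusted p = 1.29e-06). In the list of the TOM and TIM23 import channels, which also holds Timm17a, 6 of 13 were lower and 1 higher (53.8% called, median -0.10). Tomm40, the pore of the outer membrane, changed by -0.23 on the log2 scale (adjusted p = 3.46e-05), and Tomm6, a small subunit, by -0.54 (adjusted p = 0.000256). Timm21, a subunit of the inner membrane channel, rose by 0.27 (adjusted p = 0.00183).

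Regulators of the mitochondrial stress response were the list with the most members higher, 10 of 17, with 3 lower (76.5% called, median 0.16). Atf5 rose from 98 ± 5.4 to 384 ± 14.1 CPM, Ddit3, which encodes CHOP, from 19.3 to 65.3 CPM, and Atf4 from 312 to 486 CPM. Cebpg, a partner of ATF4, rose by 0.58 on the log2 scale (adjusted p = 1.12e-09 in edgeR). Those that fell, named after their values were seen, were the gene of the eIF2 kinase HRI, Eif2ak1 (-0.16), the ubiquitin-like Ubl5 (-0.26) and Nrf1 (-0.20), a factor for nuclear genes of mitochondria.

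The 13 listed chaperones of the cytosol and the endoplasmic reticulum all fell, where 18.8% of all tested genes were lower. Their median was -0.26, and 13 were lower under every one of the 21 alternatives. The list held only Hsp90 and chaperonin genes and, of the Hsp70 genes, Hspa8 and Hspa5. Other chaperones of these compartments, further Hsp70 genes among them, were not covered. Hspa8 (cytosol) and Hspa5 (endoplasmic reticulum), the listed Hsp70 genes, had log2 fold changes of -0.36 (SE 0.0308) and -0.22 (SE 0.0298). That of Hspa9 was 0.38 (SE 0.0242). The Hsp90 genes Hsp90b1, Hsp90ab1 and Hsp90aa1 had -0.39, -0.30 and -0.21, beside 0.11 for Trap1. For the chaperonins of the cytosol, Tcp1 and 7 further Cct genes, values lay between -0.32 and -0.13, a range whose upper end is close to the -0.12 of Hspd1. The difference between compartments was not tested.

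**Figure D5:**
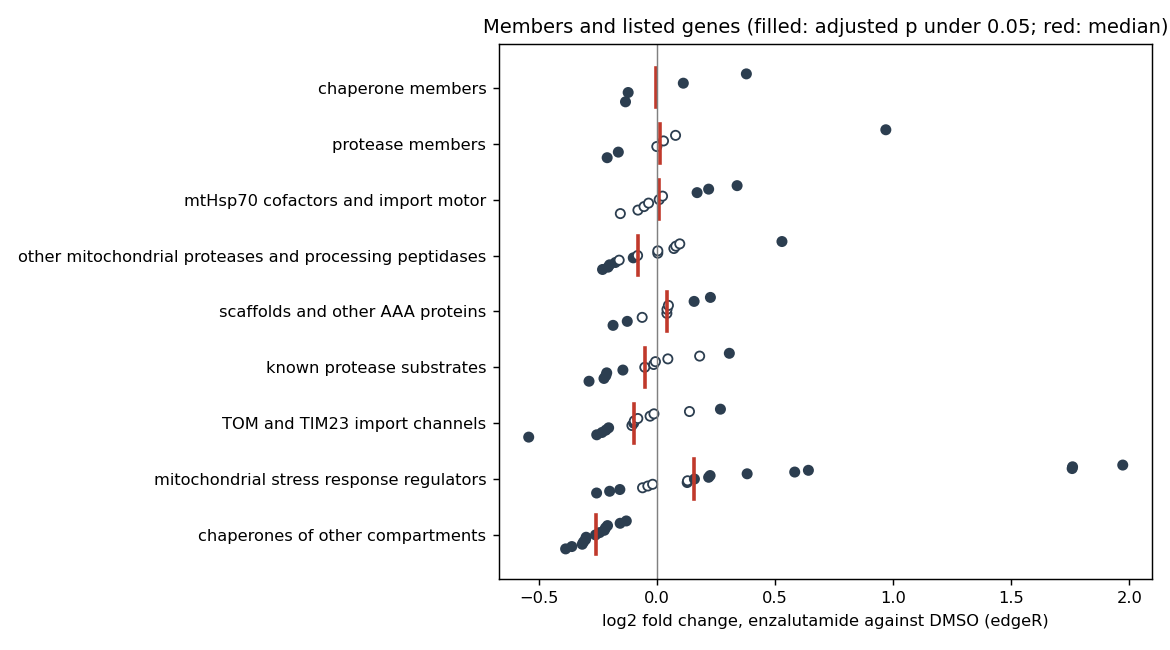
Log2 fold changes (enzalutamide against DMSO) are plotted for the 10 chaperone and protease genes and for each listed gene, filled where the adjusted p was under 0.05, with red bars at the medians. The listed chaperones of other compartments all lie below 0 with a median of -0.26, and Atf5 at 1.97 is farthest to the right.

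By Pearson correlation of log2 CPM over the 10 libraries, among 9615 genes with a mean of at least 5 CPM, the genes most like Lonp1 were Pck2 (r = 0.999), Ddit3 (0.998), Grn (0.998), Chac1 (0.998) and Atf5 (0.998). Those most like Hspd1 were Pdha1 (r = 0.99), Fabp5 (0.984), Hadh (0.976), Rbbp7 (0.975) and Snrpc (0.974). The libraries form 2 treatment groups, so these values mostly restate which genes differ between the groups with little spread. The log2 fold changes of the genes most like Lonp1 were between 0.54 and 2.19 and those of the genes most like Hspd1 between -0.35 and -0.14.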

How the data were processed

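The authors deposited whole-number counts per Ensembl gene for 10 libraries (33212 genes). A table of normalized counts was also deposited, a signal for 20240 genes; its values times a size factor per library gave the counts within 0.01 for all 20039 genes matched by symbol. Per the submitters' processing notes, the tools were HISAT2, StringTie and DESeq2 and the build was mm10, with neither versions nor roles. The counting rule, the strand setting and the handling of reads with several matches are unknown from the labels, and genes with processed pseudogenes, such as Hspd1 and Hspe1, are less certain for that reason. The 10 genes and the lists were chosen with earlier results of these data known.

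The test across genes used edgeR 4.0.16 (R 4.3.3): filterByExpr left 14156 genes, libraries were scaled by TMM, and enzalutamide was compared with DMSO by the quasi-likelihood test with no covariate, at a Benjamini-Hochberg adjusted p of 0.05. An SE is the absolute log2 fold change over the square root of F, and 95% intervals use a normal quantile. All genes of interest were named, and up to 4 passing genes per list with the lowest adjusted p, plus Atf4, Atf5 and Ddit3, the 5 genes most like each of Lonp1 and Hspd1 (members and symbols of unnamed gene models left out) and cell type markers. A few genes that this rule names are not reported here. Ratios of partner genes were tested by exact permutation (scipy 1.17.1). Positions and lengths came from GENCODE M21 (GRCm38/mm10), where 96.3% of gene IDs were found, and start-site sequences from RefSeq (GRCm38.p6). Libraries of a group differed beyond counting error in every pair (chi-square over its degrees of freedom 9.24 to 38).

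Alternatives were other scalings, other filters, the replicate number as a block, DESeq2 1.42.0, limma 3.58.1 (voom, and trend on log2 of the deposited signal plus 1 or 8) and omission of each library. Removal of trends with transcript GC content and length (known for 98.8% of tested genes) was added after the data were seen.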

Additional observations from a re-analysis of the deposited data

Results flagged for a closer look

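In 6 of 96 groups of 5 libraries, 1 library stood apart from the other 4 by more than Dixon's 95% critical value, and chance alone gives about 1 in 20. DMSO library 3 had the highest Hspd1 level, 1560 CPM against 1488 to 1501 CPM in the others, the highest sum of the 4 chaperone genes, 2737 CPM against 2616 to 2646 CPM, and the lowest ratio of Spg7 to Afg3l2, 0.326 against 0.354 to 0.365. Enzalutamide library 5 had the lowest Hspe1 level, 204 CPM against 239 to 251 CPM. Tomm6 was at 37.5 CPM in enzalutamide library 3 and at 46.4 to 49.9 CPM in the other enzalutamide libraries. Atf5 was at 88.6 CPM in DMSO library 5 and at 98.0 to 102 CPM in the other DMSO libraries.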

How the results depend on the processing

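Lonp1 (log2 fold change 0.92 to 1.00), Hspa9 (0.36 to 0.41), Hspd1 (-0.13 to -0.09), Yme1l1 (-0.23 to -0.18) and Afg3l2 (-0.20 to -0.13) kept their direction and passed under all 21 alternatives, and Clpp did not pass under any. Hspe1 lost its call under 7 and Trap1 under 3. Between 2 and 3 of the 10 genes were higher and between 3 and 4 lower. Signs turned for values that did not pass. The log2 fold change of Spg7 was 0.0324 with total counts alone and ranged from -0.0312 to 0.0379 when single libraries were left out, above 0 in 4 cases (DMSO 1 and 4, enzalutamide 4 and 5). The log2 fold change of Clpx ranged from -1.78e-05 (DMSO 5 left out) to 0.0446 when single libraries were left out, and up to 0.0609 over all alternatives. On the log2 scale the difference in the ratio of partner genes, Hspe1/Hspd1, ranged from -0.0298 to 0.0252 (enzalutamide 5 left out) and that in the ratio of partner genes, Clpx/Clpp, from -0.108 to 0.0134 (enzalutamide 2 left out). The cause was not tested.

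With total counts alone 3285 genes were higher and 2131 lower, 60.7% of calls higher against 50.3% with TMM (2696 and 2662); the median log2 fold change was then 0.04. Deviations of libraries with the same replicate number were only weakly correlated (-0.00779 to 0.0515). For DMSO libraries 2, 3 and 5 the enzalutamide library with the highest correlation had the same number, and for 1 and 4 it did not. The labels do not say whether a shared number means a shared culture or day. With the replicate block edgeR called 2659 genes higher and 2637 lower, and 3 and 4 of the 10 genes as before. For the ratios, pairing by replicate number left the log2 differences of 0.16 (Spg7 to Afg3l2) and 0.59 (Lonp1 to Hspa9) at an exact adjusted p = 0.125, since 5 pairs cannot give a p under 0.0625.

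The 10 genes had between 1915 and 104958 counts per library.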
